A study of Mus musculus with 6 samples.

Results

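Laminin, nidogen, perlecan and collagen IV genes were followed through mouse pancreatic tumour organoids with and without depletion of the polarity protein Scribble. The genes are Lama3, Lama5, Lamb1, Lamb2, Lamb3 and Lamc1, which encode laminin chains, Nid1 (nidogen), Hspg2 (perlecan) and Col4a1 (a collagen IV chain). They were chosen by name, as 9 of the 54453 genes in the deposited tables, and all 9 were among the 14169 genes that passed the low-count filter. The tested libraries carried shRNA Scrib #5523 and their controls carried shRNA Renilla, a hairpin against a luciferase gene that mouse cells lack. Each hairpin was placed in the organoid lines T91, T113 and T118, which gave 3 libraries with the Scrib hairpin and 3 with the Renilla hairpin. All 6 libraries came from PDAC KPF/FC organoids, where PDAC is pancreatic ductal adenocarcinoma and KPF/FC is the genotype as labelled, which the labels do not spell out. T91 (female) was used at passage 10, T113 (male) at passage 13 and T118 (male) at passage 11. The labels speak of infection with virus and the design text of transfected plasmids. Each line stands for 1 tumour culture sampled once per hairpin, so that variation within a line and hairpin was not measured. The organoids were grown in Matrigel, an extract of a mouse tumour that is itself rich in laminin, collagen IV and nidogen protein.

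A basement membrane is the thin sheet of matrix on which epithelial cells sit. Laminins are trimers of an alpha, a beta and a gamma chain that assemble outside the cell and bind integrins and dystroglycan. Collagen IV forms a second network, nidogen links it to laminin, and perlecan is a heparan sulphate proteoglycan bound to both. The chains encoded by Lama5, Lamc1 and either Lamb1 or Lamb2 make the common laminins of mature epithelia, whereas those encoded by Lama3 and Lamb3 belong to the laminin that anchors hemidesmosomes. Carcinoma cells can make several of these proteins themselves, and loss of a continuous basement membrane is a histological mark of invasion. Scribble is a basolateral polarity protein, and its loss disturbs the epithelial polarity that contact with basement membrane helps to set.

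The RNA data were estimated counts per gene, with 24035559 to 36235773 counts per library, and levels are given as CPM, the counts scaled by library size with TMM factors, where 1 count equals 0.0269 to 0.0421 CPM. The targeted gene, Scrib, stood at 31.6 ± 2.95 CPM with the Scrib hairpin and at 164 ± 11.1 CPM with the Renilla hairpin (SD, n = 3 each). The epithelial label held, since the summed level of 8 epithelial markers (Epcam, Cdh1, keratins and others) was 7260 to 10400 CPM in Scrib hairpin libraries and 7950 to 13000 CPM in Renilla hairpin libraries. Other cells that make basement membrane left little RNA. The 10 fibroblast and stellate markers summed to 1.43 to 7.95 CPM in Scrib hairpin libraries and to 1.17 to 1.70 CPM in Renilla hairpin libraries, the highest being T91 with the Scrib hairpin. Lum was at 0 in all 6 libraries. The 8 endothelial markers summed to 2.47 to 6.37 CPM with the Scrib hairpin and to 1.81 to 5.53 CPM with the Renilla hairpin. The 8 immune markers summed to 2.28 to 5.09 CPM with the Scrib hairpin and to 3.35 to 4.44 CPM with the Renilla hairpin. The 6 neural and Schwann markers summed to 73.4 to 105 CPM with the Scrib hairpin and to 77.3 to 102 CPM with the Renilla hairpin, nearly all of it Mbp, while Sox10 was at 0 throughout. The 9 genes of interest together took between 0.0917% and 0.142% of the counts of a library.

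The start regions of 4 of these genes are shown because their mRNAs behave differently in the data below. Nid1 and Hspg2 had the ratios between hairpins that varied least from line to line, Lama5 was the most abundant laminin chain, and Lamb3 differed in direction between lines. The sequences are from RefSeq (GRCm38.p6, a table that held 7 of the 9 genes) and give the bases before the annotated start that lie in no annotated exon, read 5′ to 3′ on the strand of the gene. Nid1 is shown from chr13:13437352-13437550 (plus strand), Hspg2 from chr4:137468553-137468768 (plus), Lama5 from chr2:180225860-180226109 (minus) and Lamb3 from chr1:193301744-193301992 (plus), where its RefSeq start lies inside a longer annotated span. Capitals mark matches on either strand to the GC box, spelled GGGCGG, or to the CCAAT box. The TATA box, spelled TATAAA, was also searched on both strands. So was the AP-1 motif, spelled TGANTCA.
Nid1: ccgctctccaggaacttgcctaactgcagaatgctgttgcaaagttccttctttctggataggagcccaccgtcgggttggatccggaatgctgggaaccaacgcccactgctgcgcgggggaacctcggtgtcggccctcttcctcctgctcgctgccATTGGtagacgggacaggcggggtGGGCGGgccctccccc
Hspg2: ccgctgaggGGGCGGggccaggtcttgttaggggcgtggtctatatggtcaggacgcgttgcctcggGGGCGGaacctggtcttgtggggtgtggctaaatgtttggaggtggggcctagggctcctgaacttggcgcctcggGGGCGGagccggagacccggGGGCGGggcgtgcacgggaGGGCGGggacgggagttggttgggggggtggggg
Lama5: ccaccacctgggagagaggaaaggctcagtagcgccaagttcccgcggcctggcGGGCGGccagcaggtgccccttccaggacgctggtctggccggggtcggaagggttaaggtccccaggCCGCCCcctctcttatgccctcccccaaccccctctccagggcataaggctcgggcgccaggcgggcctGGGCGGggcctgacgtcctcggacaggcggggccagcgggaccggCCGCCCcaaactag
Lamb3: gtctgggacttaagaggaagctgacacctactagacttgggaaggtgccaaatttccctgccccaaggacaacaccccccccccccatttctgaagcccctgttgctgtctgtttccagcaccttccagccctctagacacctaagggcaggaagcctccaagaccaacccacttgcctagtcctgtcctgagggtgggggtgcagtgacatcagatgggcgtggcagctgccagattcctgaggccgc
The Hspg2 stretch held 5 GC boxes and that of Lama5 held 4, where 27.9% and 32.7% of 32817 mouse promoters had at least 1 in a window of the same length and place. The share of promoters with as many GC boxes was not counted, and their windows were not cut at exons. The Nid1 stretch held 1 GC box (24.4% of promoters had any) and 1 CCAAT box (28.2%), and the marked matches did not overlap. None of the 4 motifs was found in the Lamb3 stretch, where 32.6% of promoters had a GC box, 33.8% a CCAAT box, 12.4% a TATA box and 6.74% the AP-1 motif. Neither the TATA box nor the AP-1 motif stood in the other 3 stretches. These are matches of letters and show no binding.

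The first question was which chains the organoids express and how far the levels lie apart. Levels were compared between genes as CPM per kilobase of annotated exon. Lama5 was the highest of the 9 in all 6 libraries and Lamc1 the second, while Lama3 was the lowest in 5 of 6. Lama5 stood at 37.0, 37.6 and 34.6 CPM per kilobase in T91, T113 and T118 with the Scrib hairpin, and at 49.9, 41.3 and 38.4 with the Renilla hairpin. Lamc1 stood at 32.6, 33.6 and 32.6 CPM per kilobase with the Scrib hairpin, and at 41.6, 30.1 and 29.7 with the Renilla hairpin. The ranges of these 2 chains overlapped across libraries, but within every library Lama5 was the higher one, with a ratio of Lamc1 to Lama5 between 0.729 and 0.945.

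The beta chains were lower than Lama5 and Lamc1. Lamb3 averaged 12.3 ± 3.22 CPM per kilobase, Lamb2 11.4 ± 0.755 and Lamb1 4.13 ± 1.31 (SD over all 6 libraries). Lamb3 and Lamb2 did not differ beyond their spread, as Lamb3 was the higher in the 2 T91 and T118 pairs of libraries and the lower in the T113 pair. Lamb2 exceeded Lamb1 in every library, by 1.97 to 5.48 times. The summed level of the 3 beta chain genes was 24.4 to 27.3 CPM per kilobase with the Scrib hairpin and 26.9 to 33.6 with the Renilla hairpin. By exon length this was below the summed level of Lama3 and Lama5 in each library. With the length of the longest coding transcript, the means were 16.7 for Lamb3, 12.3 for Lamb2 and 7.09 for Lamb1, against 39.8 for Lama5. The order of Lamb3 and Lamb2 in T113, the ratios of Lamb2 to Lamb1 and the order of the sums were not checked with that length.

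Lama3 stood apart from the other chains. Its level was 0.102, 0.0151 and 0.0477 CPM per kilobase with the Scrib hairpin (T91, T113, T118), and 0.190, 0.123 and 0.187 with the Renilla hairpin. Lamb3, the beta chain of the same trimer, was 60.0 to 539 times as high per length. Lama3 was near the bottom of the measured range, at 5 to 61 counts per library. Of the laminin chains outside the 9 genes, Lama1, Lama2, Lama4 and Lamc3 were each below 1 CPM in every library and did not pass the filter, and Lama2 had a count of 0 throughout. These per-length levels rest on the union of all annotated exons. With the longest coding transcript instead, the means of Lamb1, Lamb2 and Lamb3 rose by more than their SD. By mean level, Lamb1 and Col4a1 then exchanged the sixth and seventh places.

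**Figure D1:**
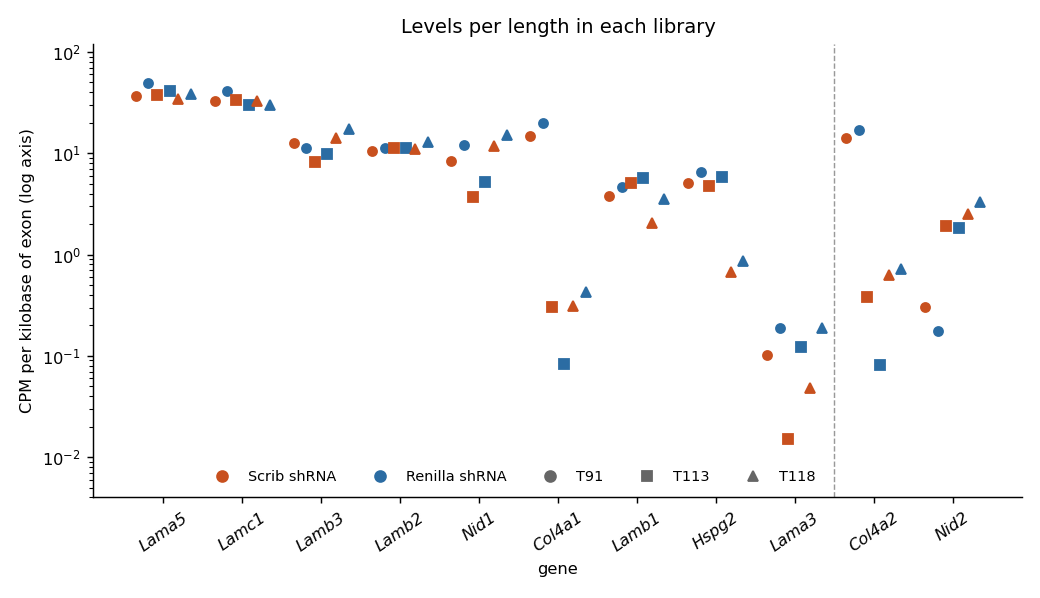
Level of each gene in CPM per kilobase of exon (log axis), 1 point per library, with Scrib shRNA in orange left of Renilla shRNA in blue and symbols for the lines. Left of the dashed line are the 9 genes by mean level, right of it Col4a2 and Nid2. Lama5 and Lamc1 lie between 29.7 and 49.9 in all libraries, while Col4a1 spans 238-fold.

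The second question was how far the lines differ. Of the 9 genes, 5 differed between lines at an adjusted p under 0.05 (F-test of both line terms in edgeR's quasi-likelihood fit, Benjamini-Hochberg adjustment over all genes), where 14.0% of all genes tested did. These were Col4a1, Hspg2, Nid1, Lamb1 and Lamb3. Lama3, Lama5, Lamb2 and Lamc1 did not pass. For T113 over T91, 2 of the 9 were lower (Nid1 and Col4a1, where 3.17% of all genes were) and 0 higher (2.89%). For T118 over T91, 2 were lower (Hspg2 and Col4a1, against 5.80% of all genes) and 0 higher (5.24%). For T118 over T113, 2 were lower (Lamb1 and Hspg2, against 5.34%) and 2 higher (Lamb3 and Nid1, against 4.91%). In bulk RNA such a difference can be fewer cells of a kind or less RNA per cell, which cannot be told apart. T91 is the only female line and each line has its own passage, so sex and passage cannot be told apart from line either.

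Col4a1 (ENSMUSG00000031502, chromosome 8, 11198423 to 11312826, minus strand, GRCm38) was present at high level only in T91. It stood at 111 CPM with the Scrib hairpin and 147 CPM with the Renilla hairpin in T91. In T113 it stood at 2.25 CPM with the Scrib hairpin and 0.620 CPM with the Renilla hairpin, and in T118 at 2.31 CPM with the Scrib hairpin and 3.17 CPM with the Renilla hairpin. Both T91 libraries thus lay far above the other 4. The log2 fold change was -6.54 for T113 over T91 (standard error 0.59, 93.1-fold lower, adjusted p of 0.00831 by edgeR's quasi-likelihood test) and -5.55 for T118 over T91 (0.55, 47.0-fold lower, adjusted p of 0.00799). The overall line test had an adjusted p of 0.00513 by the same fit. It was the 1 gene of the 9 that passed with at least 8-fold between lines, as 2.88% of all genes did. The call was lost without the low-count filter (adjusted p of 0.0936), and it was lost when any 1 library of T91 or T118 was left out (adjusted p of 0.126 to 0.231, with log2 differences of 6.13 to 6.98). Without a T113 library the call held, and the log2 difference between the highest and lowest lines was 7.89 without the Scrib and 5.61 without the Renilla one, against 6.54 with all libraries.

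Col4a2, which encodes the second chain of the collagen IV trimer and was not among the 9 genes, had the same layout by line. Its start lies head to head with that of Col4a1 on chromosome 8 (11312805 to 11449287, plus strand), with 22 bases of annotated overlap. It stood at 93.5, 2.51 and 4.14 CPM with the Scrib hairpin in T91, T113 and T118, and at 112, 0.539 and 4.81 CPM with the Renilla hairpin. The ratio of Col4a1 to Col4a2 per length was 1.05 and 1.17 in T91, 0.795 and 1.02 in T113, and 0.494 and 0.585 in T118 (Scrib, then Renilla hairpin). Per length the 2 genes were thus near equal in T91, whereas Col4a2 was the higher one in T118. Of the genes for other collagen IV chains, only Col4a5 passed the filter, at 7.66 to 10.8 CPM as line means. It did not pass the line test (adjusted p of 0.308 by edgeR's quasi-likelihood test). Fibroblast and stellate markers, of which 7 of 10 were under 1 CPM in every library, summed to 7.95, 1.43 and 2.27 CPM with the Scrib hairpin and to 1.17, 1.70 and 1.47 CPM with the Renilla hairpin (T91, T113, T118), against 111 and 147 CPM of Col4a1 in T91 alone. Their part in the line difference was not tested.

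Some genes of matrix crosslinking and proteolysis were also highest in T91. Pxdn encodes peroxidasin, which crosslinks collagen IV, and had line means of 36.4, 0.967 and 0.139 CPM in T91, T113 and T118 (adjusted p of 0.000172 by edgeR's quasi-likelihood test). Mmp14 encodes a membrane-bound matrix metalloproteinase and had line means of 48.0, 1.70 and 1.81 CPM (adjusted p of 0.000383 by the same test). Loxl2, a lysyl oxidase family gene, had line means of 11.7, 2.32 and 1.25 CPM (adjusted p of 0.00194 by the same test).

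Both nidogen genes differed between lines, with a different line lowest for each. Nid1 (ENSMUSG00000005397, chromosome 13, 13437551 to 13512269, plus strand) stood at 58.2, 25.7 and 81.9 CPM with the Scrib hairpin in T91, T113 and T118, and at 83.9, 35.8 and 105 CPM with the Renilla hairpin. T113 was the lowest with either hairpin and T118 was above T91 with the same hairpin. Nid1 was 2.30-fold lower in T113 than in T91 (log2 fold change -1.20, standard error 0.12, adjusted p of 0.00288 by edgeR's quasi-likelihood test) and 3.06-fold higher in T118 than in T113 (1.61, 0.12, adjusted p of 0.00114). T118 and T91 were not told apart for Nid1 (0.41, standard error 0.11, adjusted p of 0.0721). The other nidogen gene, Nid2, stood at 1.56, 9.99 and 12.9 CPM with the Scrib hairpin and at 0.905, 9.48 and 17 CPM with the Renilla hairpin. T91 was thus the lowest for Nid2, with an adjusted p of 0.00250 for the line terms by edgeR's quasi-likelihood test. Per length, Nid1 exceeded Nid2 by 27.9 and 69.1 times in T91, by 1.92 and 2.81 times in T113 and by 4.73 and 4.6 times in T118 (Scrib, then Renilla hairpin). The T91 ratios rest on few Nid2 counts, 37 with the Scrib hairpin and 27 with the Renilla hairpin.

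**Figure D2:**
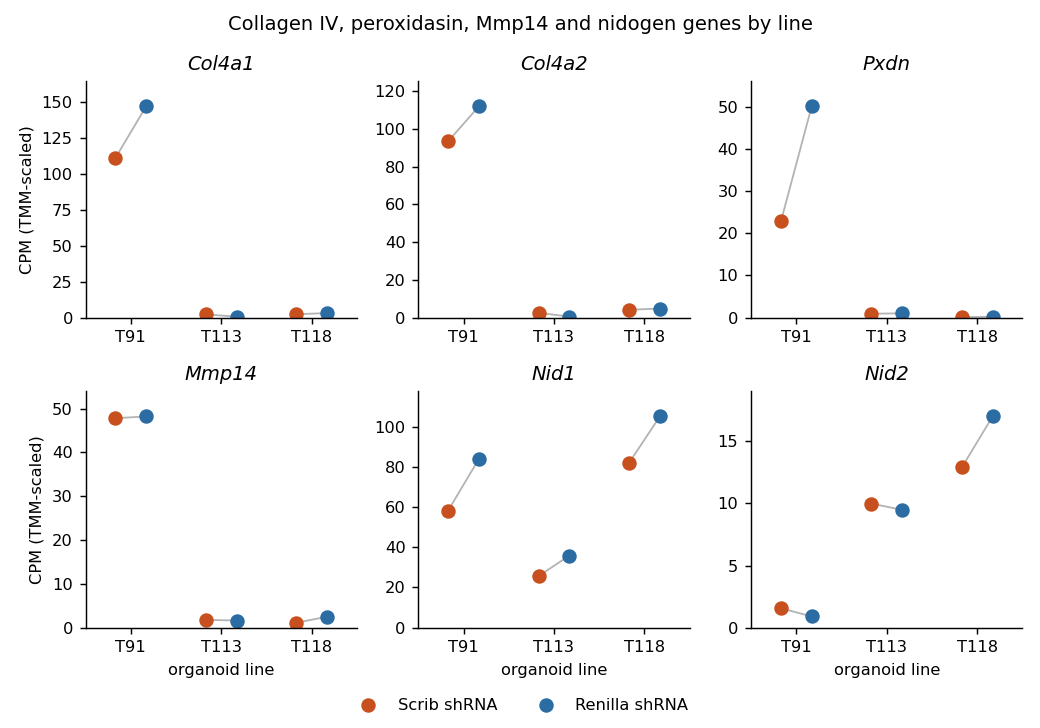
CPM of Col4a1, Col4a2, Pxdn, Mmp14, Nid1 and Nid2 by organoid line (linear axes from 0), with Scrib shRNA in orange left of Renilla shRNA in blue and 1 point per library. The first 4 genes are high in T91 alone, at 22.8 CPM or more against at most 4.81 CPM in the other lines, whereas Nid2 is lowest there.

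Hspg2 (ENSMUSG00000028763, chromosome 4, 137468769 to 137570630, plus strand) was low in T118. Its values were 73.5, 67.8 and 9.62 CPM with the Scrib hairpin in T91, T113 and T118, and 93.0, 82.5 and 12.4 CPM with the Renilla hairpin. T118 lay 7.57-fold below T91 (log2 fold change -2.92, standard error 0.12, adjusted p of 0.000102 by edgeR's quasi-likelihood test) and 6.85-fold below T113 (-2.78, 0.12, adjusted p of 0.000341). T113 and T91 were not told apart (-0.14, standard error 0.11, adjusted p of 0.532). The line accounted for 98.5% of the variance of log2 CPM of Hspg2 over the 6 libraries. Agrn and Col18a1, the genes of the other heparan sulphate proteoglycans of basement membranes, had line means of 427 to 543 CPM and of 243 to 330 CPM. Neither passed the line test (adjusted p of 0.261 and 0.103 by the same fit).

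Among laminin chains, the line differences were smaller. Lamb1 (ENSMUSG00000002900, chromosome 12, 31265234 to 31329644, plus strand) stood at 37.7, 50.2 and 20.1 CPM with the Scrib hairpin in T91, T113 and T118, and at 45.8, 56.9 and 35.3 CPM with the Renilla hairpin. T118 was lowest and T113 highest with either hairpin, a 1.99-fold difference (log2 fold change -0.99 for T118 over T113, standard error 0.18, adjusted p of 0.0205 by edgeR's quasi-likelihood test). Lamb3 (ENSMUSG00000026639, chromosome 1, 193207699 to 193343878, plus strand) stood at 84.3, 53.9 and 93.8 CPM with the Scrib hairpin, and at 75.5, 65.4 and 114 CPM with the Renilla hairpin. Here T118 was highest and T113 lowest, so that the order of these 2 lines was the reverse of that for Lamb1 (0.80 for T118 over T113, standard error 0.15, adjusted p of 0.0233 by the same test). The overall line tests had adjusted p of 0.0299 for Lamb1 and 0.0340 for Lamb3 by the same fit. Neither call was firm. That of Lamb1 was lost without the hairpin term (adjusted p of 0.108) and without the T113 Scrib library (0.104), and that of Lamb3 without either T113 library (adjusted p of 0.266 without the Scrib and 0.145 without the Renilla one). The annotated span of Lamb3 holds Hsd11b1 and G0s2 on the opposite strand, and whether the counting used strand is not stated.

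None of the remaining chains passed the line test. Lama5 (ENSMUSG00000015647, chromosome 2, 180176373 to 180225859, minus strand) had line means of 495, 449 and 415 CPM in T91, T113 and T118. Lamb2 (ENSMUSG00000052911, chromosome 9, 108479736 to 108490530, plus strand) had 66.6, 68.5 and 72.8 CPM. Lamc1 (ENSMUSG00000026478, chromosome 1, 153218922 to 153332786, minus strand) had 307, 263 and 258 CPM. The adjusted p for the line terms was 0.410 for Lama5, 0.697 for Lamb2 and 0.461 for Lamc1 by edgeR's quasi-likelihood test, with at most 1.19-fold between lines for any of the 3. Lama3 (ENSMUSG00000024421, chromosome 18, 12333819 to 12583013, plus strand) had line means of 1.57, 0.741 and 1.26 CPM, an adjusted p of 0.243 by the same test and standard errors of 0.52 to 0.54 on the log2 differences between lines.

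**Figure D3:**
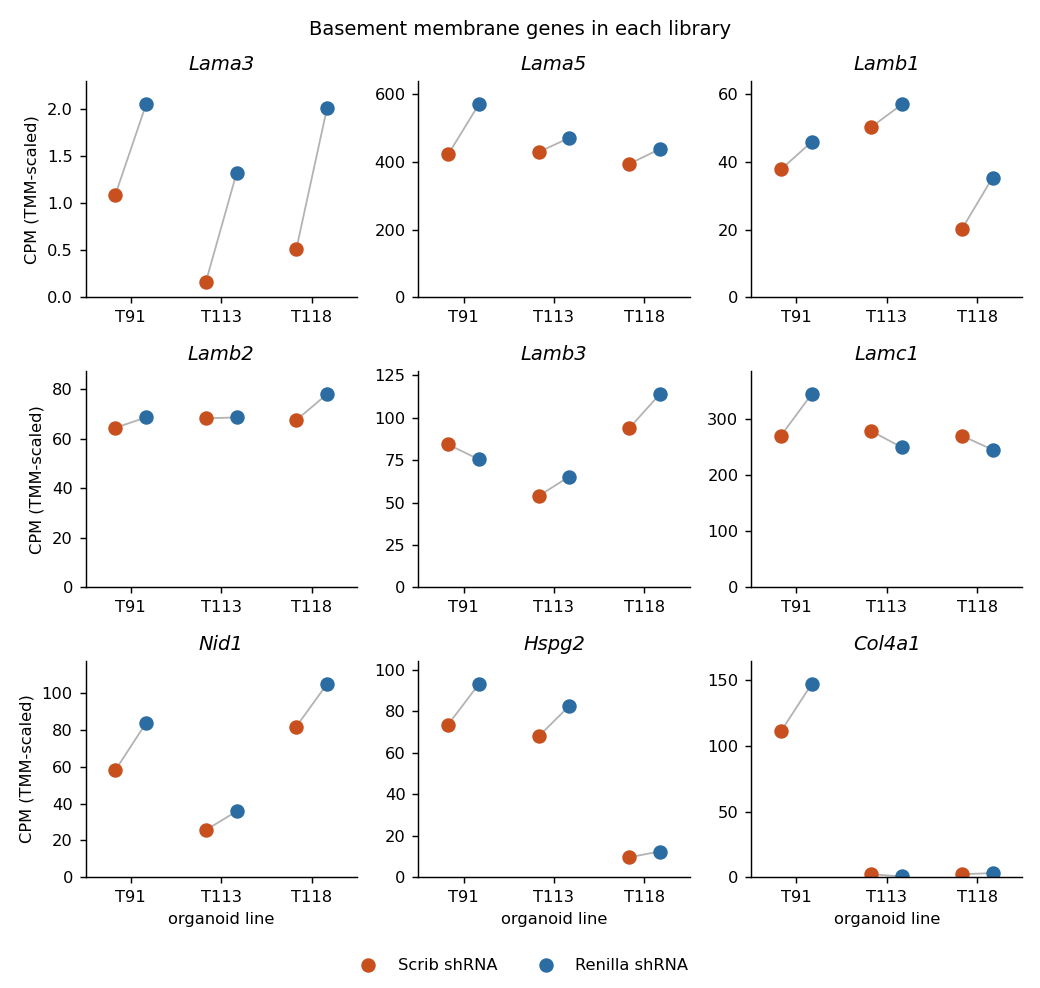
CPM of the 9 genes in each library by organoid line (linear axes from 0, a scale per gene), with Scrib shRNA in orange left of Renilla shRNA in blue and a grey line joining the libraries of a line. Lama3, Lama5, Lamb1, Lamb2, Nid1 and Hspg2 are lower with the Scrib hairpin in all 3 lines. With either hairpin, Hspg2 in T118 and Nid1 in T113 lie below all libraries of the other lines, and Col4a1 in T91 lies above them.

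The third question was whether these genes differed between the Scrib and the Renilla hairpin. All Scrib libraries carried the same hairpin, so depletion of Scrib cannot be told apart from other effects of that hairpin. None of the 9 passed edgeR's quasi-likelihood test over all genes with Benjamini-Hochberg adjustment (0.00706% of all genes did, which is Scrib alone), and none passed with DESeq2 or limma-voom. The fitted log2 fold change was below 0 for 8 of the 9 (51.8% of all genes), and its median was -0.24 against -0.01 over all genes tested. At an unadjusted p under 0.05 there were 4 lower (5.06% of all genes) and 0 higher (1.55%). In 6 of the 9 the Scrib hairpin library was the lower one in all 3 lines (15.4% of all genes). All 3 Scrib hairpin libraries lay below all 3 Renilla hairpin libraries for 3 of the 9, Lama3, Lama5 and Lamb2 (2.14% of all genes), and for 0 of the 9 they lay above (2.60%). The genes were listed with earlier results of these data known, so the shares are a description. Of the fibroblast and stellate markers 2 passed the filter, and both had log2 fold changes above 0 for the Scrib over the Renilla hairpin (median 1.39, unadjusted p under 0.05 for both, none past the adjusted threshold by edgeR). Their part in the hairpin comparison was not tested.

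Lama3 had the lowest ratios of the Scrib over the Renilla hairpin. It stood at 1.09, 0.163 and 0.512 CPM with the Scrib hairpin in T91, T113 and T118, against 2.05, 1.32 and 2.01 CPM with the Renilla hairpin. These are 26, 5 and 14 counts with the Scrib hairpin and 61, 49 and 59 counts with the Renilla hairpin. The groups did not overlap. Within a line the Scrib hairpin library held 54.1% of the Renilla level in T91, 13.4% in T113 and 26.1% in T118. Counting error alone gave the T113 log2 ratio of -2.90 a 95% interval from -4.17 to -1.63. The log2 fold change over the lines was -1.82 (standard error 0.44, 95% interval -2.89 to -0.75), with an unadjusted p of 0.00547 and an adjusted p of 0.606 by edgeR's quasi-likelihood test. The labels and files do not tell which of the transcripts of Lama3 these counts came from.

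Nid1 and Hspg2 had ratios nearer to equality and more even between lines. Nid1 in Scrib hairpin libraries held 69.4%, 71.8% and 77.9% of its level in the Renilla hairpin library of the same line (T91, T113, T118). The log2 fold change was -0.45 (standard error 0.09, 95% interval -0.68 to -0.23), with an adjusted p of 0.554 by edgeR's quasi-likelihood test (unadjusted p of 0.00225). Hspg2 held 79.0%, 82.2% and 77.7%, with a log2 fold change of -0.33 (0.09, interval -0.55 to -0.11) and an adjusted p of 0.693 by the same test (unadjusted p of 0.0105). Since both genes differ severalfold between lines, the values of the hairpin groups overlapped, and only the comparison within lines showed a common direction. What varied with neither line nor hairpin was 0.232% of the variance of log2 CPM for Nid1 and 0.0143% for Hspg2. Line made up 89.9% and 98.5% of that variance, so the small remainders do not show how precisely the ratios were measured. Counting error alone gave the Hspg2 log2 ratio of -0.36 in T118 a 95% interval from -0.59 to -0.13. Across the other alternatives and with each line left out, the log2 fold change of Nid1 stayed between -0.51 and -0.42, and its lowest adjusted p was 0.0522 (DESeq2).

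Among the other laminin chains, Lama5 stood at 421, 428 and 393 CPM with the Scrib hairpin in T91, T113 and T118, against 569, 470 and 437 CPM with the Renilla hairpin. The groups did not overlap, although the ratio was 74.0% in T91 and 91% and 90.1% in T113 and T118. The log2 fold change was -0.24 (standard error 0.10, interval -0.48 to 0.00), with an adjusted p of 0.763 by edgeR's quasi-likelihood test. For Lamb1 the log2 fold change was -0.42 (0.14, adjusted p of 0.744 by the same test), where the Scrib hairpin library held 82.3% (T91), 88.1% (T113) and 56.9% (T118) of the Renilla level. Without T118 the estimate for Lamb1 was -0.23. Lamb2 stood at 64.5, 68.3 and 67.6 CPM with the Scrib hairpin and at 68.7, 68.7 and 78.1 CPM with the Renilla hairpin. Its log2 fold change was -0.10 (0.09, interval -0.33 to 0.12, adjusted p of 0.836 by the same test).

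Lamb3, Lamc1 and Col4a1 differed in direction between lines. Lamb3 was at 112% of its Renilla level in T91 and at 82.5% and 82.3% in T113 and T118. Lamc1 stood at 270, 278 and 270 CPM with the Scrib hairpin in T91, T113 and T118, and at 344, 249 and 245 CPM with the Renilla hairpin. It was thus lower with the Scrib hairpin in T91 and slightly higher in the other lines, and its Scrib hairpin values lay closer together (SD 4.43 CPM) than its Renilla hairpin values (SD 55.8 CPM). Col4a1 was at 75.2% and 72.8% of the Renilla level in T91 and T118 but at 357% in T113, where 69 counts in the Scrib hairpin library stood against 23 in the Renilla hairpin library. The log2 fold changes over the lines were -0.13 for Lamb3 (standard error 0.12), -0.02 for Lamc1 (0.13) and 0.02 for Col4a1 (0.43, interval -1.12 to 1.16), with adjusted p of 0.833, 0.979 and 0.990 by edgeR's quasi-likelihood test. With 1 library per line and hairpin, a difference in response between lines could not be tested.

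**Figure D4:**
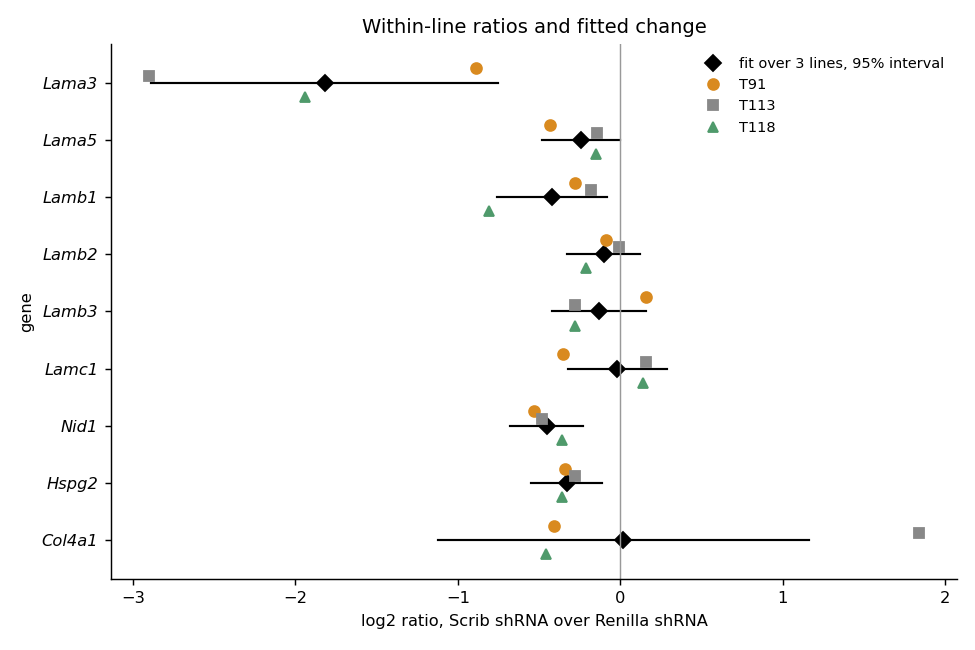
Log2 ratio of Scrib shRNA over Renilla shRNA for each gene, with 1 coloured symbol per line and a black diamond with its 95% interval for the edgeR fit over the lines. Nid1 and Hspg2 have 3 ratios close together between -0.53 and -0.28, Lama3 has the lowest ones, and Col4a1 in T113 lies at 1.84.

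The rest of the basement membrane system was read from lists of genes by role. Of 29 other structural genes, 17 passed the filter, 12 with a fold change below 0 (51.8% of all genes tested) and 5 above, and the median was -0.08. None passed the hairpin test by edgeR, 5 lower ones had an unadjusted p under 0.05 (5.06% of all genes), and 9 of the 17 (52.9%) differed between lines (14.0% of all genes). The lowest p values were those of Fbln1, a fibulin (log2 fold change -0.71, standard error 0.17), Col4a5 (-0.50, 0.17) and Col18a1 (-0.25, 0.10). By line, Tinagl1, a secreted basement membrane glycoprotein, had means of 518, 155 and 372 CPM in T91, T113 and T118, Egfl6 of 5.25, 3.87 and 23.6 CPM, and Fbln2 of 32.0, 3.90 and 15.0 CPM.

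Of 14 receptor genes for laminin and collagen, 13 passed the filter, 12 with a fold change below 0 (51.8% of all genes), with a median of -0.19, and 6 (46.2%) differed between lines (14.0% of all genes). No receptor passed the hairpin test by edgeR, and 4 lower (5.06% of all genes) and 1 higher (1.55%) had an unadjusted p under 0.05. For Itga1, a collagen and laminin receptor gene, the log2 fold change was -0.47 (standard error 0.10), for Itga2 -0.39 (0.10) and for Bcam, a receptor for the laminin alpha chain of Lama5, 0.28 (0.09). Bcam had line means of 427, 222 and 206 CPM in T91, T113 and T118, and Itgb4, the hemidesmosome integrin chain gene, of 145, 133 and 283 CPM. Among 17 genes of assembly and secretion, 15 passed the filter, 11 below 0 (51.8% of all genes) and 4 above, with a median of -0.18. The log2 fold change was -0.84 (standard error 0.25) for Pxdn, -0.44 (0.19) for P4ha1, a prolyl hydroxylase subunit, and -0.22 (0.10) for Plod2, a lysyl hydroxylase. In that list 1 lower gene had an unadjusted p under 0.05 (5.06% of all genes), none passed by edgeR, and 6 differed between lines (14.0% of all genes), P4ha2 and Loxl4 among them (line means of 43.7, 25.8 and 15.3 CPM, and of 20.6, 6.93 and 24.3 CPM). Of 18 protease and inhibitor genes, 13 passed the filter, 11 below 0 (51.8% of all genes) and 2 above, with a median of -0.25, none past the hairpin test by edgeR and 8 (61.5%) past the line test (14.0% of all genes). Plat, tissue plasminogen activator, had a log2 fold change of -0.39 (0.12), the heparanase gene Hpse of -0.36 (0.14) and Timp3, a metalloproteinase inhibitor, of 0.66 (0.29). In the protease list 2 lower genes had an unadjusted p under 0.05 (5.06% of all genes). Plau, urokinase, had line means of 28.6, 8.27 and 15.2 CPM and Timp2 of 193, 132 and 107 CPM.

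Over the 6 libraries, the genes nearest to Nid1 in their centred log2 CPM among 9971 coding genes were Ehbp1l1, Serpinb5 and Id2, with root mean square differences of 0.21, 0.24 and 0.25 where Nid1 itself had an SD of 0.79. For Lamb3 they were Tusc1, Vps37b and Exoc3l4, at 0.09, 0.09 and 0.10 where Lamb3 had an SD of 0.38. The 6 points share lines and hairpins, so the likeness is a description of these libraries.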

How the data were processed

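Each library's deposited file held estimated counts for every Ensembl gene, with no scaling by the authors for depth. The submitters' processing notes name Salmon 1.4.0, DESeq 2 and GRCm38 (mm10), with no role given for any of them. The annotation and whether counting used strand are not given in the sources used. Salmon shares reads among similar transcripts, which can shift counts between related genes.

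These estimated counts were rounded to whole numbers. Symbols, positions and exon lengths came from GENCODE M21 on GRCm38, and 54200 of 54453 identifiers matched. Low genes were removed by filterByExpr with a minimum count of 10 by hairpin group, and 99.8% or more of a library's counts stayed. Libraries were scaled by TMM.

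Both comparisons came from 1 fit in edgeR 4.0.16 (R 4.3.3) over all 6 libraries with terms for line and hairpin, tested two-sided by quasi-likelihood with robust dispersions, 2 residual and 4.43 prior degrees of freedom and a threshold of 0.05. Adjustment was over all 14169 genes. Each line received both hairpins, which pairs its libraries, and their deviations from the group means correlated, with r of 0.62 (T91), 0.67 (T113) and 0.66 (T118). Ratios within a line had 0.5 counts added to each library. Variance shares used log2 of counts plus 2, scaled to CPM. The 95% intervals of single ratios cover counting error only. Chi-square values per degree of freedom between libraries were 24.9 or more, so no library was a copy of another. The fit was tested on simulated data. Whether the 3 libraries of a hairpin came from separate infections is not stated beyond their lines.

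The 9 genes, the lists, the tests and the alternatives were chosen with earlier results of these data known. All 9 genes are named, with other laminin chains, Col4a2, Nid2, up to 4 genes per list past the line test by p, up to 3 per list by p in the hairpin test, and 3 genes most alike to each of Nid1 and Lamb3. Some items that this rule covers are not reported here. Agrn, Col4a5 and Col18a1 in the line comparison, and Mbp, Sox10 and Lum among the markers, were picked after seeing their values. Alternatives were limma-voom (limma 3.58.1), DESeq2 1.42.0, DESeq2 size factors, other filters, non-robust dispersions, fits without a term and leaving out lines or libraries.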

Additional observations from a re-analysis of the deposited data

Results flagged for a closer look

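Each group held 3 libraries, too few to look for a single library far from the others. In 9 of 34 genes looked at the ratio of the Scrib over the Renilla hairpin had opposite signs in at least 1 pair of lines, both beyond their own counting error. With 1 library per line and hairpin the difference between lines was not tested in any of them. Among the 9 genes of interest these were Lamb3, with a log2 ratio of 0.16 in T91 against -0.28 in T113 and -0.28 in T118, Lamc1, with -0.35 in T91 against 0.16 in T113 and 0.14 in T118, and Col4a1, with 1.84 in T113 against -0.41 in T91 and -0.46 in T118. Col4a2 had 2.19 in T113 against -0.26 in T91, while its -0.22 in T118 was within counting error (95% interval -0.58 to 0.14). Nid2 had 0.77 in T91 against -0.40 in T118. Fbln2 had 0.26 in T91 against -0.48 in T113. P4ha1 had 0.10 in T91 against -0.51 in T113 and -0.90 in T118. Timp3 had -0.20 in T91 against 1.27 in T113 and 0.93 in T118. Loxl4 had -0.31 in T118 against 0.34 in T91 and 0.29 in T113.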

How the results depend on the processing

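No alternative brought any of the 9 genes past the adjusted threshold in the hairpin comparison, and the lowest adjusted p among them was 0.0522. Of 89 values for the 9 genes under alternatives to that comparison, 85 kept their direction. The other 4 were of genes whose reported estimate was 0.02 (Col4a1) or -0.02 (Lamc1). Col4a1 had a log2 fold change of -0.39 with no replicate block, -0.21 by limma-voom and -0.43 to 0.61 with a line left out, and Lamc1 had -0.10 to 0.15 with a line left out (above 0 without T91). With the line as replicate block (the fit reported) 1 gene was called, and with no replicate block also 1. The count of genes called was 64 without the low-count filter, 63 by DESeq2, 8 by limma-voom and 9 to 94 with a line left out. The average CPM filter of at least 5 removed Lama3, which has no value there. Between lines, 105 of 116 values kept direction and side of the threshold. The count of genes that differed was 1310 with the stricter filter, by testing fewer genes, and 1274 to 4328 with a library left out, which leaves a lone library assumed to vary like the others. Of the 9 genes, 3 to 5 passed the line test with a library left out. For Lamc1 the log2 difference between its highest and lowest lines was 0.00, with the sign turned, without the T91 Renilla library and up to 0.48 without the T91 Scrib library, where it passed (adjusted p of 0.0205 by edgeR's quasi-likelihood test). The cause was not tested in any of these. The order by mean level per length was the same for 7 of 9 genes with transcript length. The means of Lamb1, Lamb2 and Lamb3 moved by more than their SD. Depth limits Lama3 most, with 5 to 61 counts, and Col4a1 outside T91.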
